A study of Mus musculus with 8 samples.

Results

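The genes described here encode Notch receptors, ligands and modulators: Notch1, Notch4, Dll4, Jag1, Jag2, Lfng, Mfng, Rbpj and Nrarp, 9 of 21887 protein-coding genes of RefSeq. SMAD4 binding sites were assigned to them by position: a peak counted when its summit lay inside the gene body or within 100 kb of it, on mm10. This gave 40 of the 5466 called peaks, namely 32 of 4333 in the stimulated list and 8 of 1133 in the unstimulated list. Each peak was then marked by whether the gene in question, or another one, was the closest protein-coding gene. The genes were listed with earlier results of these data known, so their number of peaks is a description.

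The study mapped SMAD4 by ChIP-seq in MS1, an established mouse endothelial cell line from pancreatic islet. All cells were serum starved for 24 h. Stimulated cells then received BMP9/10 recombinant protein at 1 ng/mL, whereas unstimulated cells received fresh medium. There were 8 samples in 4 groups of 2: stimulated SMAD4 immunoprecipitates (IP), stimulated input DNA, unstimulated SMAD4 IP and unstimulated input DNA. The authors merged both libraries of a group before calling peaks, so each condition is 1 pooled measurement and no value below has a replicate error or a test across replicates. The stimulated peaks came from 41044888 IP tags and the unstimulated peaks from 52971023. KD, an abbreviation that is not spelled out, directly follows Smad4 in the titles of both stimulated IP libraries, where the unstimulated titles have IP. The descriptions of the stimulated IP libraries name SMAD4-bound DNA from stimulated cells. SMAD4 peaks measure binding and not RNA, so neither the endothelial identity of the cells nor the expression of any gene was examined.

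Notch receptors are cleaved when a ligand on a neighbouring cell engages them, and the released intracellular domain joins the DNA-binding protein RBPJ to switch on target genes. Fringe enzymes add sugars to the receptors and thereby alter which ligands activate them. In growing vessels the ligand DLL4 on tip cells restrains sprouting of their neighbours, and signalling by BMP9 and BMP10 through the endothelial receptor ALK1 is known to act together with Notch on shared target genes. SMAD4 pairs with the SMADs that these receptors activate and binds chromatin together with them.

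No genome sequence was used here, but RefSeq gives the bases around gene start sites (GRCm38.p6, 250 bases before to 50 after the start). Of the 9 genes, 8 had an entry; Mfng had none. No peak covered the start site window of any of the 8. A start window of the non-coding RNA gene Gm13387, however, lay entirely under the stimulated peak 35.2 kb from Nrarp. Of its 300 bases, 283 lay under the unstimulated peak there. It therefore gives part of the sequence of the site shared by both lists, and both peaks extend beyond it. An internal start window of Egfl7 contained the whole of a stimulated peak in the Notch1 window, at bases 145 to 262. These are shown with the start windows of Jag1 and Rbpj, whose peaks lay nearest to a start site, and of Dll4, which had the most peaks. Capitals mark the motifs searched on both strands: CAGAC and the palindrome GTCTAGAC, which SMAD3 and SMAD4 are known to bind, GGCGCC and GGAGCC, which belong to GC-rich elements of BMP-activated SMADs, and TGGGAA, the core of the RBPJ site.
Gm13387, chr2:25145438-25145737, minus strand: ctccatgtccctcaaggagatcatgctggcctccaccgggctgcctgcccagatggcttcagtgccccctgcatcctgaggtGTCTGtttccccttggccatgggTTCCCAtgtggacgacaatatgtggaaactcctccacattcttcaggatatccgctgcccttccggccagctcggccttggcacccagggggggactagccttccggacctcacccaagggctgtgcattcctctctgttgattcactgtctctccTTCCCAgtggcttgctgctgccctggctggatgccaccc
Egfl7, internal start, chr2:26583615-26583914, plus strand: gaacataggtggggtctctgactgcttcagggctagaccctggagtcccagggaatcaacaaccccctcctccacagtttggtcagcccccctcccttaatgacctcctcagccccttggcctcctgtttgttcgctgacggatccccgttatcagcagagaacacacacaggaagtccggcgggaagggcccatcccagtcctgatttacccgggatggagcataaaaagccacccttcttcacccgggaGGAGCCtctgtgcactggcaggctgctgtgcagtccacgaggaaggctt
Jag1, chr2:137116471-137116770, minus strand: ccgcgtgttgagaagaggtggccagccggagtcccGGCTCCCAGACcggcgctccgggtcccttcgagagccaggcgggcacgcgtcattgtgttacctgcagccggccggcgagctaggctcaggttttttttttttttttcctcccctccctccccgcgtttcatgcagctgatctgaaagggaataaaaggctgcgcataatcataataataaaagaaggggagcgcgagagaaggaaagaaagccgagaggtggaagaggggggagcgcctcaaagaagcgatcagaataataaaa
Rbpj, chr5:53590096-53590395, plus strand: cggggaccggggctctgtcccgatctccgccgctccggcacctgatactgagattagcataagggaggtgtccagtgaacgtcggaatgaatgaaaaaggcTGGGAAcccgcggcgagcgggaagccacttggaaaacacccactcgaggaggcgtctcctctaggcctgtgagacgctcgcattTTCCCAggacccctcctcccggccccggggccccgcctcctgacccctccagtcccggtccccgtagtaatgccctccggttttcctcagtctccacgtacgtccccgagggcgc
Dll4, chr2:119325534-119325833, plus strand: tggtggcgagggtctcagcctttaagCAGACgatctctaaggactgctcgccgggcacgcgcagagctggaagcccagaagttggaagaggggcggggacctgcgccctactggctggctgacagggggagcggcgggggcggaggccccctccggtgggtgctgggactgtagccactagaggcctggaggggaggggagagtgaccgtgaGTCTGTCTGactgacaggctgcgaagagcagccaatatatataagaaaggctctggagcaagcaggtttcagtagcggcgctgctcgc

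The Gm13387 window held CAGAC at bases 83 to 87 and TGGGAA at bases 106 to 111 and 262 to 267, all in reverse. The stimulated summit lay at base 205 and the unstimulated summit at base 178, so neither summit fell on a match. Both TGGGAA matches and the CAGAC match lay under the peaks of both lists. In the Egfl7 window the only match was GGAGCC at bases 252 to 257, under the stimulated peak, whose summit lay at base 219. Among the start windows of the members, CAGAC occurred at 4 of 8 genes (Notch4, Dll4, Jag1 and Nrarp), against 49.6% of the 32817 start windows in the RefSeq table. The Nrarp window held 4 copies, and 2 of the 3 copies at Dll4 shared a base. GGAGCC occurred at 4 genes (Notch1, Jag1, Jag2 and Lfng), against 30.8% of all windows. TGGGAA occurred at Rbpj itself and at Lfng, against 25.6% of all windows. GGCGCC and GTCTAGAC occurred in 0 windows of the members, against 11.9% and 0.213% of all windows. No test was run on so few windows, and a match is not a binding site.

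All 9 genes had at least 1 stimulated peak in their window and 4 had an unstimulated one (Notch1, Jag2, Mfng and Nrarp). Over all protein-coding genes the shares were 36.5% and 13.1%. The median number of peaks in a window was 4 in the stimulated list and 0 in the unstimulated list for the 9 genes, against 0 and 0 over all protein-coding genes. There were more stimulated than unstimulated peaks in the windows of 8 genes, as in 31.7% of all protein-coding genes, and Jag2 had 1 of each. By closest gene, 8 of the 9 were nearest to a stimulated peak (all but Jag2), against 12.2% of all protein-coding genes. In the unstimulated list this held for Notch1 and Nrarp, 2 of 9, against 3.79% of all protein-coding genes. These 8 genes were nearest to 14 stimulated peaks and these 2 genes to 2 unstimulated peaks. The stimulated list was the longer one. Shortened to its 1133 peaks of highest −log10 q, it placed 10 peaks in the windows, against the 8 of the unstimulated list. At that length 4 of the 9 genes (Notch4, Dll4, Lfng and Nrarp) were nearest to a stimulated peak, against 3.87% of all protein-coding genes.

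**Figure D1:**
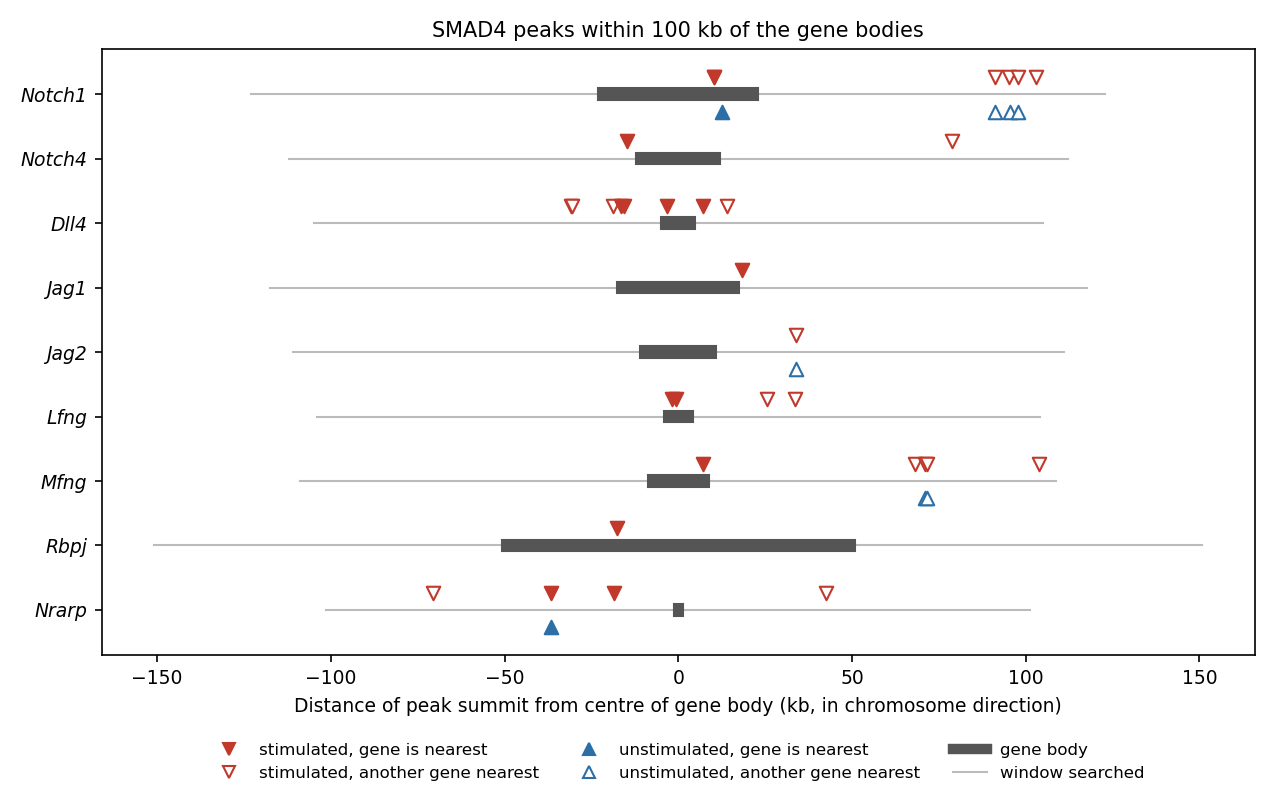
Position of every SMAD4 peak summit within 100 kb of the 9 gene bodies, in kb from the centre of the gene body; stimulated peaks are drawn above and unstimulated peaks below each line, filled where the gene is the closest protein-coding gene. Filled stimulated symbols appear for 8 genes and filled unstimulated symbols for Notch1 and Nrarp; Dll4 has 8 stimulated peaks.

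Notch1, the main endothelial Notch receptor (chromosome 2, 26457902 to 26503822, minus strand), had 2 stimulated peaks inside its gene body, 12.8 and 12.6 kb downstream of its start site. Whether they lie in an exon or an intron is not given by the annotation used. The first (26490962 to 26491061) had a pileup of 24 tags at the summit, a fold enrichment of 3.57 and a −log10 q of 4.48. Pileup is the number of IP tags, each counted at a length of 100 bp, over the summit, and fold enrichment is the authors' ratio to local background. The second (26491218 to 26491325) had 27 tags, a fold enrichment of 4.59 and a −log10 q of 7.75. The 2 summits were 212 bp apart and the peaks were 100 and 108 bp wide, at or near the narrowest width in the list. Whether they are separate sites was not tested. The unstimulated list had 1 peak in the gene body, at another place (26493384 to 26493555, 10.4 kb from the start site), with 39 tags, a fold enrichment of 2.67 and a −log10 q of 3.70. It was the only one of the 8 unstimulated peaks without a stimulated counterpart, whereas 95.9% of all unstimulated peaks had one. By fold enrichment it ranked 1063 of the 1133 unstimulated peaks.

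The other peaks in the Notch1 window lay 68.2 to 80.0 kb upstream of its start and were closest to Egfl7, which encodes a factor secreted by endothelial cells. There were 4 in the stimulated list, with fold enrichments of 6.0, 5.56, 8.88 and 3.59. The unstimulated list had 3, with 3.77, 3.72 and 6.02, each at one of the first 3 stimulated sites. The peak of 8.88 (26578296 to 26578793) was the highest by fold enrichment in any of the 9 windows and ranked 143 of 4333. It lay 2.47 kb from Egfl7 and 74.8 kb from Notch1. With these, 189 protein-coding genes (0.864%), Notch1 included, had as many stimulated peaks in their window as Notch1 or more. For its 4 unstimulated peaks the number was 70 genes (0.320%).

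Notch4, a receptor largely restricted to endothelium, lies among 13 other protein-coding genes within its window on chromosome 17 (34564286 to 34588543, plus strand). Its peak (34561591 to 34561785) lay 2.63 kb upstream of the start site in the stimulated list. It had 41 tags, a fold enrichment of 5.25 and a −log10 q of 14.1, and it was among the peaks kept when the list was shortened. A weaker stimulated peak in the window (fold enrichment 3.29) lay 0.162 kb from Atf6b, a transcription factor of the stress response of the endoplasmic reticulum. The unstimulated list had 0 peaks in the Notch4 window.

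Among the ligands, Dll4 (chromosome 2, 119325784 to 119335666, plus strand) had 8 stimulated peaks in its window and 0 unstimulated ones. Counting Dll4 itself, 34 protein-coding genes (0.155%) had as many stimulated peaks in their window or more. That share was 2.02% for Mfng, 3.99% for Lfng and Nrarp, 16.2% for Notch4, and 36.5% for Jag1, Jag2 and Rbpj. Windows of neighbouring genes overlap and can hold the same peaks. Dll4 was nearest to 4 of the 8, and these surrounded the gene. Upstream, 11.4 kb from the start, the peak at 119314235 to 119314466 had 38 tags, a fold enrichment of 5.0 and a −log10 q of 12.3. A second one 10.8 kb upstream (119314920 to 119315070) had 32 tags over a higher local background, with a fold enrichment of 2.36 and a −log10 q of 2.16. These 2 summits were 0.637 kb apart. Inside the gene body, 1.61 kb downstream of the start, a peak (119327326 to 119327437) had 20 tags, a fold enrichment of 4.88 and a −log10 q of 6.27. The fourth (119337547 to 119337857) lay 2.12 kb past the gene body, with 25 tags, a fold enrichment of 3.82 and a −log10 q of 5.34. Of the 4, the first was in the shortened list and the others were not.

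The remaining 4 stimulated peaks in the Dll4 window had fold enrichments of 2.70 to 3.18, below the median of 4.56 of all stimulated peaks. They lay 9.19 to 25.8 kb from the gene body. Vps18, a gene of endosomal transport, was the closest gene for 3 of them, and Chac1 for 1. Of the 3 assigned to Vps18, 1 was almost as close to Dll4 (13.4 kb from Vps18, 13.9 kb from Dll4). Chac1 encodes an enzyme that degrades glutathione and is known to hinder the maturation of Notch receptors in mouse.

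Jag1, a ligand whose loss disturbs vessel development, had 1 stimulated peak and 0 unstimulated peaks (gene body: chromosome 2, 137081451 to 137116520, minus strand). The peak (137117220 to 137117478) lay 0.874 kb upstream of the start site, outside the start window printed above. It had 26 tags, a fold enrichment of 5.51 and a −log10 q of 9.53, over a low local background of 3.90 tags. The window holds 1 other protein-coding gene. Jag2 (chromosome 12, 112907803 to 112929812, minus strand) was nearest to 0 peaks in either list. Its window held 1 site, called in both lists, 23.1 kb upstream of its start. That site was 3.0 kb from Brf1, which encodes a subunit of an RNA polymerase III initiation factor, and its summit lay inside the non-coding RNA gene Gm26583. The stimulated peak (112952403 to 112952831) had 71 tags and a fold enrichment of 8.0, and the unstimulated peak (112952501 to 112952756) had 70 tags and 6.70.

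The fringe genes Lfng and Mfng encode enzymes that extend sugars on Notch receptors. Lfng (chromosome 5, 140607341 to 140615545, plus strand) had 2 stimulated peaks inside its gene body of 8.21 kb. The first (140609632 to 140609798), 2.37 kb downstream of the start, had 46 tags, a fold enrichment of 5.80 and a −log10 q of 17.7. The second (140610692 to 140611442), 3.57 kb downstream, had 53 tags, a fold enrichment of 5.51 and a −log10 q of 19.3. At 751 bp it was the widest of all peaks in the 9 windows, against a median of 207 bp over the stimulated list. Both were in the shortened list, and the unstimulated list had 0 peaks in the Lfng window. A further 2 stimulated peaks (fold enrichments 4.79 and 2.60) lay inside the neighbouring gene Ttyh3.

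Mfng (chromosome 15, 78755882 to 78773516) had 1 stimulated peak inside its gene body (78771791 to 78771926), 1.64 kb from the end with the higher coordinate. It had 32 tags, a fold enrichment of 3.30 and a −log10 q of 5.39, lower than at Lfng. The other 4 stimulated peaks in its window were nearest to other genes, 3 to Cdc42ep1, an effector of the GTPase CDC42, and 1 to Gga1, a gene of protein sorting at the Golgi. Their fold enrichments were 4.57, 6.52, 4.33 and 3.78. Both unstimulated peaks of the Mfng window also lay near Cdc42ep1, with 3.38 and 2.69, at the sites of the stimulated peaks of 6.52 and 4.33.

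Rbpj encodes the DNA-binding protein through which Notch acts (chromosome 5, 53555779 to 53657445, plus strand). It had 1 stimulated peak (53588953 to 53589366) and 0 unstimulated ones. The peak lay inside the gene body, 33.2 kb from its lower end, and 1.34 kb upstream of the closer of the 2 start sites in the RefSeq promoter table. It had 28 tags, a fold enrichment of 4.14 and a −log10 q of 6.92, and it was not in the shortened list.

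Nrarp, a Notch target gene whose product limits Notch signalling, was the only one of the 9 with a nearest peak called in both lists (chromosome 2, 25180758 to 25183339, plus strand). The stimulated peak (25145357 to 25145851) lay 35.2 kb upstream of the start, over the Gm13387 start window shown above, with 57 tags and a fold enrichment of 6.74. The unstimulated peak (25145394 to 25145720) had 52 tags and a fold enrichment of 3.53. Among the 14 stimulated peaks nearest to a member, this stimulated peak had the highest fold enrichment and tag count. Another, closer peak was called in the stimulated list alone (25163463 to 25163621, 17.2 kb upstream), with 29 tags, a fold enrichment of 5.26 and a −log10 q of 10.02. The window holds 16 other protein-coding genes. Weaker stimulated peaks, with fold enrichments of 3.24 and 2.81, were nearest to Noxa1, a subunit of an NADPH oxidase, and to the tubulin gene Tubb4b.

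**Figure D2:**
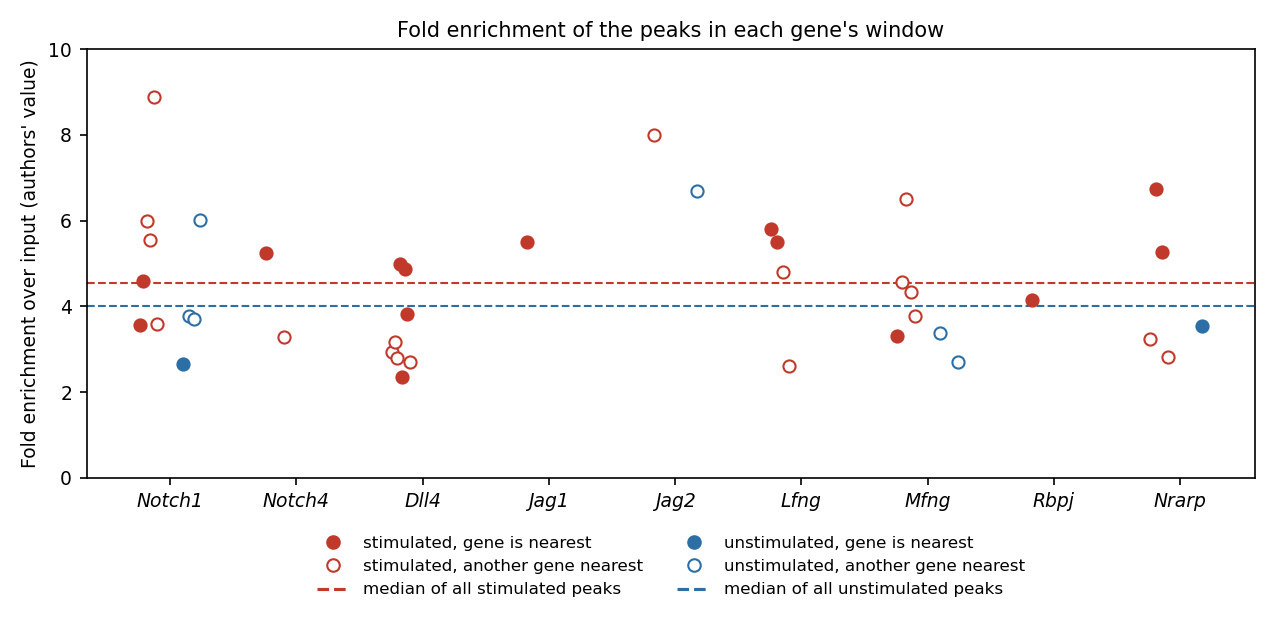
Fold enrichment over input, as the authors' caller gave it, for each peak in the window of each gene, with stimulated peaks to the left and unstimulated peaks to the right; filled points mark peaks for which the gene is the closest one. Dashed lines are the medians of all peaks, 4.56 in the stimulated and 4.0 in the unstimulated list; filled stimulated points span 2.36 at Dll4 to 6.74 at Nrarp.

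Over the 14 stimulated peaks nearest to a member, the median fold enrichment was 4.94, against 4.56 over all stimulated peaks. The range, 2.36 to 6.74, lay well within that of the whole list, 1.55 to 24.9. The strongest of them, at Nrarp, ranked 543 of 4333. Their median width was 181 bp, against 207 bp over the list. Of these 14 peaks, 7 (50%) lay inside a gene body, against 46.7% of all stimulated peaks, and 10 (71.4%) lay within 5 kb of one, against 61.6%. Over all 32 stimulated peaks in the windows, the median fold enrichment was lower, at 4.45. Of the 32, 11 (34.4%) lay inside a gene body and 20 (62.5%) within 5 kb of one. For the 18 nearest to another gene, the median was 3.685, and 4 (22.2%) lay inside a gene body.

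The overlap of the lists was counted next, since peaks in both lists allow the 2 conditions to be set side by side. Of the 32 stimulated peaks in the windows, 7 overlapped an unstimulated peak by at least 1 bp (21.9%, exact 95% binomial interval 9.28 to 40.0). Over all stimulated peaks the share was 24.9%. Both shares depend on the lengths of the lists, 4333 stimulated and 1133 unstimulated peaks. With the stimulated list shortened to 1133 peaks, an alternative chosen after seeing the data, 6 of its 10 peaks in the windows had a counterpart (60%, 26.2 to 87.8), against 64.2% of the whole shortened list. In the other direction 7 of the 8 unstimulated peaks (87.5%) overlapped a stimulated one. Among the 14 stimulated peaks nearest to a member only the distal Nrarp peak had a counterpart (7.14%, 0.181 to 33.9), and among the 18 nearest to another gene 6 had one (33.3%, 13.3 to 59.0). In the shortened list a counterpart was present for 1 of the 5 peaks nearest to a member, again the distal Nrarp peak, and the peaks at Notch4, Dll4 and Lfng had none. The intervals of the full list overlap each other and its overall share of 24.9%, but they treat neighbouring peaks as independent. Whether these shares differ was not tested. The shared sites were thus those near Egfl7 (3), Cdc42ep1 (2), Brf1 (1) and Nrarp (1).

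At all 7 shared sites the IP pileup per 1000000 IP tags was higher in the stimulated list. Most shared pairs of the whole series were higher too, as the lower quartile of stimulated over unstimulated was 1.29. At Nrarp it was 1.39 stimulated and 0.982 unstimulated, a ratio of 1.41 with an exact counting interval of 0.954 to 2.10. Near Egfl7 the ratios were 1.43 (0.946 to 2.15), 1.76 (1.12 to 2.78) and 1.41 (0.991 to 2.01). Near Cdc42ep1 they were 1.26 (0.804 to 1.98) and 1.44 (0.884 to 2.36), and near Brf1 1.31 (0.928 to 1.85). The interval lay above 1 at 1 of the 7 sites, against 36.6% of the 1078 shared pairs of the whole series. The summed pileup of the 7 sites gave a ratio of 1.41 (1.22 to 1.64), and the median of all shared pairs was 1.47. The intervals cover counting error within the pooled libraries, and only sites with a peak in each list enter.

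Fold enrichment differed more than pileup at several of these sites, and local background also differed. At Nrarp the fold enrichments stood in a ratio of 1.91, while the local background per tag was 0.701 times as high in the stimulated as in the unstimulated list. At the stronger Cdc42ep1 site the ratio was 1.92 and the background ratio 0.602. The background ratio had a median of 0.860 over the 7 sites and of 1.0 over all shared pairs. Fold enrichment divides pileup by local background after adding 1 to each, so a lower background raises it by construction. Why the background differed was not tested.

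**Figure D3:**
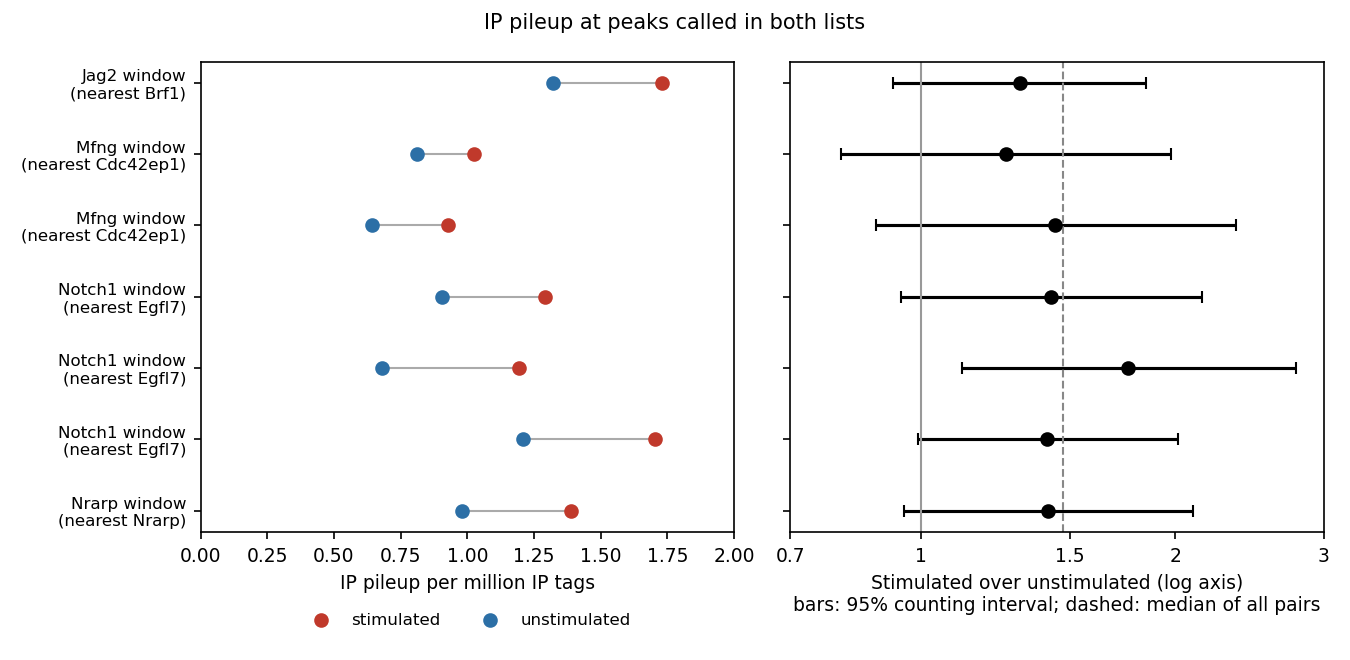
Left, IP pileup per 1000000 IP tags at the 7 sites of the windows called in both lists, in the stimulated and the unstimulated list; right, their ratio on a log axis with exact 95% counting intervals, and the median of all 1078 shared pairs (1.47, dashed). Stimulated values are higher at all 7 sites, as at most shared pairs of the whole series, and the interval lies above 1 at 1 site near Egfl7.

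For the 25 stimulated peaks in the windows that overlapped no unstimulated peak, no unstimulated pileup is recorded in the list, so the 2 conditions cannot be compared there. A missing peak means that the site did not pass the threshold, not that SMAD4 was absent.

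Further genes of the pathway were counted in the same way. Of 29 such genes (other receptors, ligands, processing enzymes, co-activators, modifiers and target repressors), 14 had a stimulated peak in their window (48.3%) and 4 an unstimulated one (13.8%). Over all protein-coding genes these shares were 36.5% and 13.1%. By closest gene, 3 of the 29 had a stimulated peak (10.3%, against 12.2% of all protein-coding genes) and 2 an unstimulated one (6.90%, against 3.79%). Hes1, a repressor induced by Notch and BMP signals, was nearest to 10 stimulated and 5 unstimulated peaks, the strongest with fold enrichments of 10.5 and 6.82, 56.2 kb from the gene. Adam17, which encodes a protease able to shed Notch receptors, was nearest to 1 peak in each list, at 0.143 kb from the gene with 8.72 in the stimulated list and at 0.105 kb with 4.67 in the unstimulated list. Maml2, a co-activator of the RBPJ complex, was nearest to 2 stimulated peaks (highest fold enrichment 5.0) and 0 unstimulated ones. The receptors Notch2 and Notch3 and the ligands Dll1 and Dll3 were nearest to 0 peaks in either list.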

How the data were processed

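SMAD4 ChIP-seq peaks of MS1 cells were analysed as deposited, 1 list per condition. The authors' caller was MACS2, version 2.1.0.20140616, run on merged IP against merged input libraries, per the file headers. It allowed at most 1 tag per position, with down-sampling of the larger set and a q cutoff of 0.01. Tags of 140 bp (stimulated) and 146 bp (unstimulated) were counted at a length of 100 bp. The headers name 187 bp (stimulated) and 171 bp (unstimulated) as possible alternative fragment lengths. Input tags numbered 59057559 (stimulated) and 72688953 (unstimulated), and the band width was 200 and 300, per the file headers. The build mm10 is named in the submitters' processing notes; an aligner is not given in the sources. Pileup, a coverage signal, was deposited by the authors without scaling. The deposited −log10 p-values and q-values compare IP with input, and fold enrichment, a ratio also deposited by the authors, divides pileup by local background after adding 1 to each. No values per library were used.

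Pileups were divided here by IP tags and given per 1000000. Solving that ratio for the background gave values from which a Poisson tail came within 1% of the deposited −log10 p for all 4333 stimulated and all 1133 unstimulated peaks. Gene positions came from RefSeq (GRCm38.p6), distances run from the summit to the gene body, and ties were kept. Overlap needed 1 bp; for ratios each peak was used once, closest summits first. Intervals are exact at 95%. Those of pileup ratios cover counting error only. Those of shares treat peaks as independent, although some peaks lie close together. The code was checked on simulated data. Python 3.11.15, pandas 2.3.3 and scipy 1.17.1 were used. The genes, gene lists and comparisons were chosen with earlier results of these data known. All 9 genes were named, and each of their peaks was counted.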

Additional observations from a re-analysis of the deposited data

How the results depend on the processing

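A narrower window, a stricter threshold or a shorter list lowered the counts by construction. Stimulated peaks in the windows numbered 11 within 10 kb, 13 at a −log10 q of at least 10 and 10 in the shortened list (32 as reported). Unstimulated ones numbered 3 within 50 kb, 1 within 10 kb and 3 at a −log10 q of at least 10 (8 as reported). Genes nearest to a stimulated peak numbered 4 at a −log10 q of at least 10 and 4 in the shortened list (8 as reported). Genes nearest to an unstimulated peak numbered 1 within 10 kb, 1 at a −log10 q of at least 5 and 0 at 10 (2 as reported). The summed ratio of pileups at shared sites, 1.41 per IP tag, was 1.64 over local background and 0.958 relative to the median of all shared pairs. The last lies below 1 because those pairs have a median of 1.47. The share of stimulated peaks with a counterpart ranged from 18.8% to 25% under other overlap rules and a −log10 q of at least 5 (21.9% as reported), but was 60% in the shortened list, chosen for this share after seeing the data. Merging summits within 1 kb, chosen after seeing the data, left 28 stimulated and 7 unstimulated sites.

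No paired analysis was possible because the authors pooled the replicates of each group before calling peaks. Leaving out a replicate was not run, as the lists hold no values per library. Every difference between the lists therefore rests on 1 pooled measurement per condition. Some peaks lie close to the threshold, such as the second upstream site of Dll4, with 32 tags over a local background of 13 and a −log10 q of 2.16.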
